A study of Danio rerio with 8 samples.

Results

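Collagen genes were measured in the whole liver of female zebrafish fed a whole egg diet or a control diet. Of the 32520 genes counted, 57 carried a collagen symbol (col, the number of the type, a, the number of the chain, in small letters or capitals), and the 37 with 10 or more reads summed over all fish are described here. By collagen type, 10 were fibrillar, 8 belonged to basement membranes and 19 to other types. The other 20 collagen genes had 0 to 9 reads each, and 2 of them (col9a1b and col17a1a) had 0 reads in all fish, which allows a pooled level of up to 0.0167 CPM, where CPM is the count scaled to a common library size. The share of genes with 10 or more reads was 64.9% among collagen genes and 60.05% among all genes.

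Livers of 4 females fed the whole egg diet (Whole Egg-1 to Whole Egg-4) and 4 females fed the control diet (Control-1 to Control-4) were sequenced, 1 library per fish. All fish were 36 wk old by their labels and had received their diet from day 21. The Whole Egg diet held whole egg product in place of a large part of its protein, and the Control diet drew its protein from several sources. By the paper's recipe, the Whole Egg diet also held more fat and more energy than the Control diet. Effects of egg, fat and energy cannot be told apart in these fish. The labels do not name the tank of a fish, so p-values measure the spread between these fish. The question put to the data was whether long-term feeding on Whole Egg changed the collagen transcripts of the liver.

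Collagens are secreted proteins made of 3 chains wound into a triple helix. Fibrillar collagens pack into the fibers that give tissue its tensile strength, type IV collagen forms the sheet of the basement membrane, and type VI collagen forms beaded filaments around cells. In the vertebrate liver, stellate cells, other mesenchymal cells and endothelial cells are the known sources of most collagens, and the build-up of fibrillar collagens is a hallmark of fibrosis. Because the whole liver was sequenced, fewer cells of a type and less RNA per cell cannot be told apart.

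The sequencing counted between 16916307 and 35871236 reads per fish on genes (median 21073643.5). The collagen genes took 18387 of these reads in all, between 1647 (Whole Egg-4) and 3198 (Control-2) per fish, and single collagen genes were therefore measured with few reads. Levels are given as CPM with library sizes scaled by TMM, a method that takes most genes as unchanged between libraries. CPM are not divided by the length of the gene and do not compare the number of transcripts between genes. Values of single fish are listed in the order of their numbers, 1 to 4. The liver label was met by the hepatocyte markers, which summed to 11146 to 38532 CPM. Markers of its stroma were lower, and some were at or near 0. The 20 stellate and mesenchymal markers summed to 17.7 to 51.1 CPM on Whole Egg and 21.9 to 42.6 CPM on Control. Among them, thy1 had the most reads, 1330 over all fish. The receptor gene PDGFRB had 2.70 to 5.80 CPM and the retinol enzyme gene LRAT had 0.849 to 1.99 CPM, whereas GFAP, cygb2 and both VIM genes were at or near 0 in all fish. Endothelial markers summed to 40.4 to 79.5 CPM and skeletal muscle markers to 0.0492 to 0.894 CPM. Libraries Whole Egg-2 and Control-2 stood apart in ovary and intestine markers. The 17 ovary markers summed to 584 CPM in Whole Egg-2 and to between 3.79 and 69.0 CPM in the other fish. The 15 intestine markers summed to 206 CPM in Control-2 and to between 9.66 and 18.4 CPM in the other fish. Markers of the exocrine pancreas were found in every library. These 12 markers summed to 101 to 1027 CPM on Whole Egg and 238 to 1399 CPM on Control, and Control-2 was the highest fish. The part of such tissue in the collagen levels was not tested.

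Type VI collagen took most of the collagen reads. Its 5 genes held 54.7% of them, followed by type I (11.8%), type V (11.1%), type IV (9.84%) and type XVIII (3.95%). The 17 genes with enough reads for the test of the diets held nearly all collagen reads, and the other 20 together held 730 reads, or 3.97%.

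The summed level of all 37 collagen genes was 104.8, 79.4, 86.3 and 99.3 CPM in Whole Egg-1 to Whole Egg-4, against 100.6, 144.9, 96.6 and 116.8 CPM in Control-1 to Control-4. The diets overlapped, and Control-2 was the highest fish and Whole Egg-2 the lowest. The mean was 92.4 ± 11.6 CPM on Whole Egg and 114.7 ± 21.9 CPM on Control (SD, n = 4 each), a difference of −0.30 on the log2 scale. It was −0.18 without Control-2 and −0.11 without Control-2 and Whole Egg-2. A single gene, col6a1, contributed between 17.4% (Whole Egg-4) and 48.4% (Control-2) of the collagen reads of a fish. Without it, the sum was 64.7 ± 11.9 CPM on Whole Egg and 71.3 ± 5.16 CPM on Control, a difference of −0.15 on the log2 scale. The order of the diets depended on TMM. Scaled by reads on genes alone, all 37 genes summed to 97.2, 135.5, 101.7 and 97.4 CPM on Whole Egg. On Control they summed to 78.0, 167.8, 85.1 and 79.6 CPM. All Whole Egg fish then lay above all Control fish but Control-2. The TMM factors ran from 0.928 to 1.72 on Whole Egg and from 0.682 to 1.16 on Control.

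**Figure D1:**
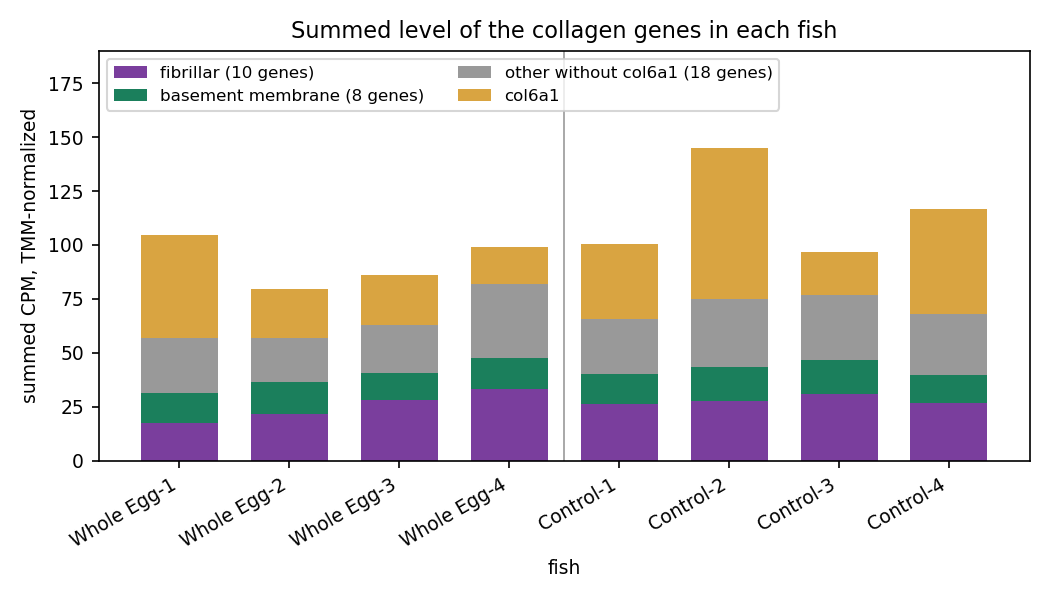
Summed TMM-normalized CPM of the collagen genes in each fish, as stacked bars for fibrillar genes, basement membrane genes, the other types without col6a1, and col6a1. The basement membrane part differs little between fish, while col6a1 ranges from 17.3 CPM in Whole Egg-4 to 70.2 CPM in Control-2.

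By class, the fibrillar genes summed to 25.2 ± 6.81 CPM on Whole Egg and 27.95 ± 2.15 CPM on Control. The basement membrane genes summed to 13.7 ± 1.09 CPM on Whole Egg and 14.6 ± 1.36 CPM on Control. The other types summed to 53.5 ± 13.8 CPM on Whole Egg and 72.1 ± 22.6 CPM on Control. In all 3 classes the fish of the diets overlapped. The fibrillar sum ranged more widely on Whole Egg, where Whole Egg-1 had 17.8 CPM and Whole Egg-4 had 33.1 CPM, than on Control, where all fish had between 26.4 and 31.1 CPM. These sums are a description, and the spread was not compared by a test.

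No collagen gene passed the test of the diets. In the fit of 13379 genes with edgeR's quasi-likelihood test, 0 of the 17 collagen genes tested had an adjusted p under 0.1, where 0% of all genes did. At an unadjusted p under 0.05 there were also 0 collagen genes, against 3.9% of all genes, and DESeq2 called 0 at its adjusted p. The edgeR adjusted p of the collagen genes ranged from 0.810 to 0.987. Likewise, in 0 of the 17 did all Whole Egg fish lie on one side of all Control fish, against 2.14% of all genes. The log2 fold change (Whole Egg over Control) was below 0 for 12 of the 17 collagen genes, where 45.8% of all genes were below 0. The median over the collagen genes was −0.13, and that over all genes was 0.04. Under upper quartile normalization 15 of 17 were below 0 (53.2% of all genes), and without Control-2 and Whole Egg-2 7 of 16 were (47.5% of all genes). The median log2 fold change was −0.13 for the 7 fibrillar genes tested, −0.05 for the 3 basement membrane genes and −0.24 for the 7 of other types. These medians turned in sign with the fish and genes that entered. Without Control-2 and Whole Egg-2 they were 0.0051 for fibrillar and 0.054 for basement membrane genes, without Control-4 and Whole Egg-1 that of the other types was 0.069, and with all 37 genes in the fit they were 0.13 for basement membrane genes and 0.056 for the other types.

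The precision of the test limits what these data could show. The 95% confidence interval of the log2 fold change held 0 for all 17 genes, and for 9 it lay within 1 log2 unit on either side of 0, so that a change above that size in these genes was outside the interval. The interval reached between 0.49 (COL6A3) and 1.37 (COL6A2) log2 units to either side of the estimate, with a median of 0.69.

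**Figure D2:**
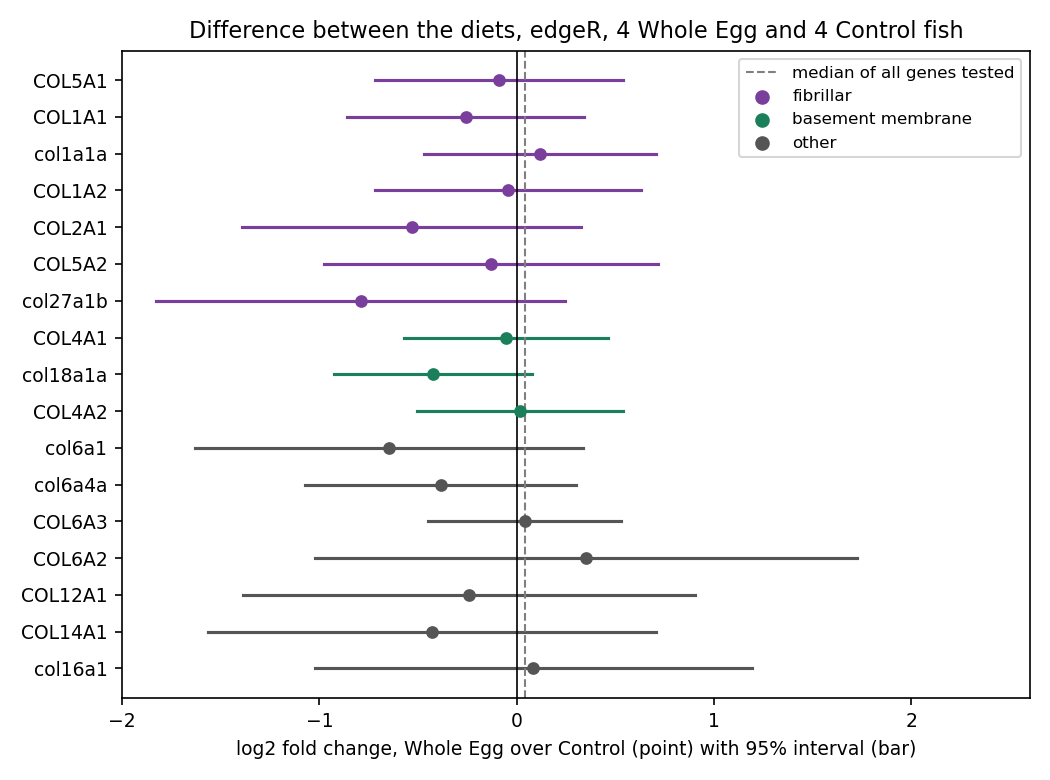
Log2 fold change (Whole Egg over Control) of the 17 collagen genes tested, as points with 95% confidence intervals from edgeR, colored by class. All 17 intervals cross 0, and the dashed line marks the median of all genes tested, 0.04.

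Type I collagen, the main fiber of most connective tissue and of liver scars, is built from alpha 1 and alpha 2 chains, and 3 genes encoded them here. The first alpha 1 gene, COL1A1 (ENSDARG00000035809), had 3.39, 4.16, 4.93 and 6.75 CPM on Whole Egg, against 4.45, 6.34, 6.78 and 5.36 CPM on Control. Its log2 fold change was −0.26 (SE 0.27). Whole Egg-1 was the lowest fish and Control-3 the highest, narrowly above Whole Egg-4. The second alpha 1 gene, col1a1a, had 2.41, 3.66, 3.63 and 4.46 CPM on Whole Egg, against 2.64, 3.94, 3.42 and 3.02 CPM on Control, with a log2 fold change of 0.12 (SE 0.26). The alpha 2 gene COL1A2 had 2.31, 2.63, 3.67 and 3.74 CPM on Whole Egg, against 2.47, 3.67, 4.28 and 2.27 CPM on Control, with a log2 fold change of −0.05 (SE 0.30). The diets overlapped in all 3 genes, and Whole Egg-1 was the lowest or the second lowest fish in each.

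Type V collagen is built into type I fibrils and sets their diameter. COL5A1, the fibrillar gene with the highest level, had 6.44, 6.41, 12.8 and 11.9 CPM on Whole Egg, against 10.7, 8.84, 10.2 and 10.2 CPM on Control (log2 fold change −0.09, SE 0.28). The Whole Egg fish fell into a low pair (Whole Egg-1 and Whole Egg-2) and a high pair (Whole Egg-3 and Whole Egg-4), with all Control fish in between. Its partner chain COL5A2 had 1.18, 1.08, 0.979 and 1.75 CPM on Whole Egg, against 1.099, 1.81, 1.77 and 0.687 CPM on Control (log2 fold change −0.13, SE 0.38). The ratio of their reads, COL5A1 over COL5A2, ranged from 4.88 (Control-2) to 14.9 (Control-4, with 10 reads of COL5A2).

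The other fibrillar genes tested had the lower p-values of the class. COL2A1 (ENSDARG00000011407), best known as the main collagen of cartilage, had 1.08, 1.76, 1.101 and 3.13 CPM on Whole Egg, against 2.58, 1.99, 2.597 and 3.02 CPM on Control. Whole Egg-4 was the highest of all fish and the other Whole Egg fish were the lowest, and the log2 fold change was −0.53 (SE 0.38) at an edgeR adjusted p of 0.812. It was −0.96 without Whole Egg-4 and −0.28 without Control-4 and Whole Egg-1. The gene col27a1b, which in zebrafish is known from the notochord and spine, had 0.590, 0.995, 0.571 and 0.904 CPM on Whole Egg, against 1.15, 0.453, 1.81 and 1.92 CPM on Control. All Control fish but Control-2 lay above all Whole Egg fish, and Control-2 was the lowest of all. The log2 fold change of col27a1b was −0.79 (SE 0.46, edgeR adjusted p = 0.810). It was −1.25 without Control-2 and Whole Egg-2, and −0.48 without Control-4 and Whole Egg-1.

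**Figure D3:**
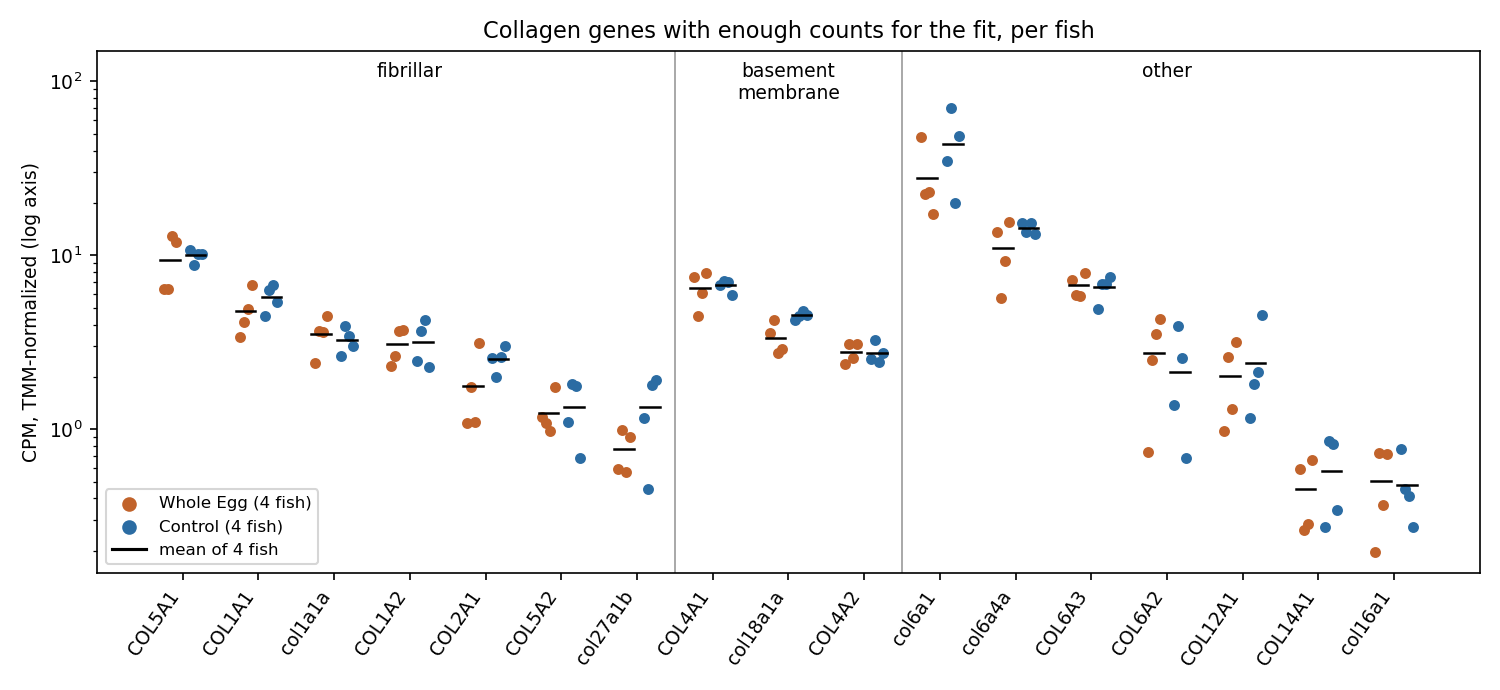
TMM-normalized CPM (log axis) of the 17 collagen genes tested, 1 point per fish, with Whole Egg left of Control within each gene and a bar at the mean of 4 fish. The diets overlap in every gene, and in col18a1a only Whole Egg-2 and Control-1 cross.

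Among the basement membrane genes, type IV collagen varied little. Its alpha 1 and alpha 2 chains are the pair found in nearly all basement membranes. COL4A1 had 7.47, 4.48, 6.08 and 7.89 CPM on Whole Egg, against 6.76, 7.16, 7.03 and 5.91 CPM on Control (log2 fold change −0.05, SE 0.23). COL4A2 had 2.36, 3.10, 2.57 and 3.07 CPM on Whole Egg, against 2.53, 3.26, 2.44 and 2.75 CPM on Control (log2 fold change 0.02, SE 0.23). The CV over all 8 fish (SD over mean) was 12.4% for COL4A2, the lowest of the collagen genes, and only 1.67% of the 5378 genes within a factor of 2 of its level had a lower CV. That of COL4A1 was 16.4%, lower than in all but 11.9% of genes of like level, and Whole Egg-2 was its lowest fish. The ratio of their reads, COL4A1 over COL4A2, ranged from 1.44 (Whole Egg-2) to 3.17 (Whole Egg-1).

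The smallest p among the collagen genes was that of col18a1a, a gene of type XVIII collagen, the heparan sulfate-bearing collagen of vascular and epithelial basement membranes whose end is released as endostatin. It had 3.59, 4.24, 2.73 and 2.89 CPM on Whole Egg, against 4.23, 4.49, 4.81 and 4.54 CPM on Control. All Whole Egg fish but Whole Egg-2 lay below all Control fish, and Whole Egg-2 lay just above Control-1, the lowest Control fish. The mean was 3.36 ± 0.695 CPM on Whole Egg and 4.52 ± 0.239 CPM on Control (SD, n = 4 each), a log2 fold change of −0.42 (SE 0.22, 95% interval −0.92 to 0.08, edgeR adjusted p = 0.810). A two-sided exact permutation test over the same fish gave an unadjusted p = 0.0571 (smallest possible 0.0286). The gene was picked by its small p in these fish, so that value is not independent support. The log2 fold change was −0.55 without Whole Egg-2, −0.56 without Control-2 and Whole Egg-2, and −0.31 without Whole Egg-3. The unadjusted p was under 0.05 in the first and second of these fits, as in 2.67% and 2.12% of all genes, with no call. The endothelial markers summed to 70.6, 40.4, 60.4 and 69.2 CPM on Whole Egg, against 67.6, 64.6, 79.5 and 74.8 CPM on Control. Of the 8 tested, 0 were above 0 in log2 fold change, against 54.2% of all genes. Markers of hepatocytes (1 of 10 above 0), exocrine pancreas (0 of 11) and macrophages (1 of 7) leaned the same way. Ovary (10 of 10) and red blood cell markers (4 of 5) leaned the other way. The part of any of these cells in the level of col18a1a was not tested.

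Type VI collagen, the microfibril collagen around cells, held the collagen gene with the most reads and also the widest differences between fish. Its chain gene col6a1 had 47.9, 22.5, 23.2 and 17.3 CPM on Whole Egg, against 34.7, 70.2, 20.01 and 48.7 CPM on Control. Whole Egg-1 was high among Whole Egg fish and Control-3 low among Control fish, so that the diets overlapped. The log2 fold change was −0.65 (SE 0.44, 95% interval −1.63 to 0.34, edgeR adjusted p = 0.810). Without Whole Egg-1 it was −1.06, with an unadjusted p under 0.05 as in 9.95% of all genes, while it was −0.29 without Control-2 and −0.22 without Control-2 and Whole Egg-2. Its CV of 52.3% was higher than in 85.4% of genes of like level. In Control-2, the highest fish, the intestine markers and the keratin gene krt4 were also high. The level of krt4 was 40.5 CPM, against 2.31 to 5.54 CPM in the other fish. The 10 bone, scale and skin markers, krt4 among them, summed to 47.6 CPM in that library, so that krt4 held most of their sum. The exocrine pancreas markers were highest in Control-2 too, at 1399 CPM, against 101 to 1027 CPM in the other fish. In Control-4 and Whole Egg-1, the next highest fish in col6a1, the intestine markers summed to 9.69 and 10.7 CPM. The pancreas markers summed to 313 and 101 CPM in those fish. The part of these genes in the level of col6a1 was not tested.

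The other type VI genes tested did not share the pattern of col6a1 over the fish, while the low gene col6a4b, given below, was also highest in Control-2. COL6A3, the chain that completes the type VI monomer, was steady, with 7.18, 5.94, 5.83 and 7.96 CPM on Whole Egg, against 4.94, 6.84, 6.87 and 7.49 CPM on Control (log2 fold change 0.04, SE 0.22, CV 14.9%). COL6A2, the third chain of the monomer, had 0.738, 2.52, 3.51 and 4.28 CPM on Whole Egg, against 1.37, 3.94, 2.57 and 0.687 CPM on Control (log2 fold change 0.35, SE 0.61). Its CV of 57.5% was the highest of the collagen genes tested. It was lowest in Control-4, Whole Egg-1 and Control-1, all of them fish in which col6a1 was at 34.7 CPM or above, while both genes were high in Control-2. The gene col6a4a, an alternative partner chain, had 13.7, 5.71, 9.21 and 15.6 CPM on Whole Egg, against 15.4, 13.6, 15.3 and 13.3 CPM on Control (log2 fold change −0.38, SE 0.30, edgeR adjusted p = 0.823). The Control fish lay close together, and Whole Egg-2 and Whole Egg-3 lay below them.

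Ratios of the reads of chain genes of the same collagen type were compared within each library, where scaling between libraries does not enter. The 9 ratios and their alternatives were chosen after the data were seen. The reads of col6a1 over those of COL6A2 were 65.0, 8.93, 6.60 and 4.04 on Whole Egg, against 25.3, 17.8, 7.80 and 70.8 on Control. Over this 17.5-fold range, Whole Egg-1 and Control-4 lay far above the other fish. These 2 ratios rest on few reads of COL6A2, 15 in Whole Egg-1 and 10 in Control-4. The 2 type I alpha 1 genes ran more closely: col1a1a over COL1A1 was 0.710, 0.880, 0.736 and 0.661 on Whole Egg, against 0.593, 0.621, 0.505 and 0.564 on Control. All Whole Egg fish lay above all Control fish in this ratio, by 0.38 on the log2 scale (two-sided exact permutation p = 0.0286, the smallest possible with 4 against 4, and 0.257 adjusted over the 9 ratios). With 4 against 4 fish, 1 ratio alone could not have passed an adjustment over 9 ratios at 0.1. The difference did not pass it, and nothing can be concluded from that outcome. It lay between 0.30 and 0.46 when each fish, either pair of fish or the strand of the reads was left out of account, and the unadjusted exact permutation p was 0.0571 without Control-3 and without Control-4, and 0.1 without either pair, the smallest that 3 against 3 fish allow. Both genes are copies of 1 ancestral gene, and only reads that mapped to 1 place were counted, so that reads from stretches alike in both are missing from either count.

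**Figure D4:**
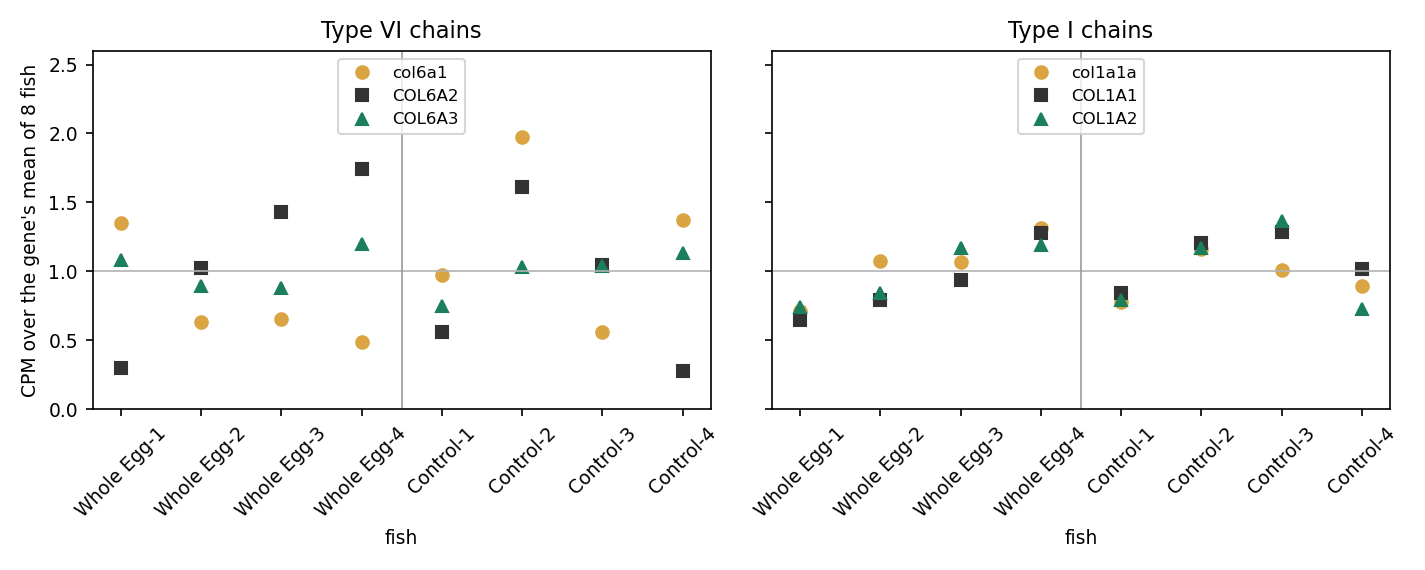
CPM of the chains of type VI collagen (left) and type I collagen (right) in each fish, divided by the mean of the gene over 8 fish, so that 1 on the vertical axis is the mean level. The type I chains lie close together within a fish, while col6a1 and COL6A2 lie on opposite sides of 1 in all Whole Egg fish and in Control-3 and Control-4.

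Fibril-associated collagens, which sit on the surface of fibrils, were measured with fewer reads. COL12A1 (ENSDARG00000078322) had 0.983, 2.61, 1.30 and 3.19 CPM on Whole Egg, against 1.15, 1.81, 2.12 and 4.54 CPM on Control (log2 fold change −0.24, SE 0.51). Control-4 was the highest fish and Whole Egg-1 the lowest, and the diets overlapped. COL14A1 and col16a1 had between 0.197 and 0.861 CPM in all fish, with log2 fold changes of −0.43 (SE 0.50) and 0.08 (SE 0.49).

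The highest and lowest levels were spread unevenly over the fish. Of the 17 collagen genes tested, Whole Egg-4 was the highest fish in 6, or 35.3%, against 10.2% of all genes, and Whole Egg-1 was the lowest in 6, or 35.3%, against 17.1% of all genes. Whole Egg-2 was the highest fish in 0 of the collagen genes, although it was the highest in 29% of all genes, and the lowest in 4, or 23.5%, against 25.9% of all genes. Control-2 was the highest in 4, or 23.5%, against 7.97% of all genes. The CV had a median of 27.5% over the collagen genes and 34.0% over all genes tested, and 11 of the 17 collagen genes varied less than the median gene of like level.

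The 20 collagen genes too low for that fit had between 11 and 80 reads in all and a mean of 0.0603 to 0.433 CPM. When all 37 were tested together with every gene of 10 or more reads (19528 genes), edgeR again called 0, the smallest adjusted p was 0.739 (col11a1b), and 0 of the 37 had an unadjusted p under 0.05, against 4.89% of all genes in that fit. Of the 20 low genes, 13 had a log2 fold change above 0 and 7 below. Whole Egg-2 was the highest fish in 7 of them, or 35%, close to its share among all genes too low for the fit (33.8%). The low genes summed to 6.67 CPM (228 reads) in Whole Egg-2, against 5.35 CPM (118 reads) in Control-2 and 1.72 to 3.51 CPM in the other fish. The genes highest in Whole Egg-2 were col11a1b, col15a1b, col4a3, col4a6, col28a2b and both col19a1 genes. The type IV chain col4a3, known in mammals from the basement membrane of the kidney filter, had 0, 28, 4 and 0 reads on Whole Egg, against 0, 4, 1 and 0 reads on Control. Another type IV chain, col4a6, had 2, 22, 5 and 1 reads on Whole Egg, against 0, 5, 4 and 0 reads on Control, and col15a1b, of a basement membrane collagen related to type XVIII, had 0, 30, 5 and 4 reads on Whole Egg, against 2, 3, 25 and 0 reads on Control. Whole Egg-2 is the library with the high ovary markers, whose part in these reads was not tested, and Control-3 was nearly as high as Whole Egg-2 for col15a1b.

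The low gene col6a4b showed a single high fish in the other diet. It had 3, 7, 6 and 5 reads on Whole Egg, against 2, 49, 3 and 2 reads on Control, so that Control-2 reached 2.22 CPM and no other fish passed 0.301 CPM. Control-2 is the library with high intestine markers and krt4, whose part in this value was not tested. The gene col8a1a, of the short-chain type VIII collagen of vessel walls, had 10, 16, 8 and 11 reads on Whole Egg, against 0, 1, 9 and 6 reads on Control. In CPM, all Whole Egg fish lay above all Control fish but Control-4. Its log2 fold change in the fit of 19528 genes was 1.36 (SE 0.83, edgeR adjusted p = 0.745).

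**Figure D5:**
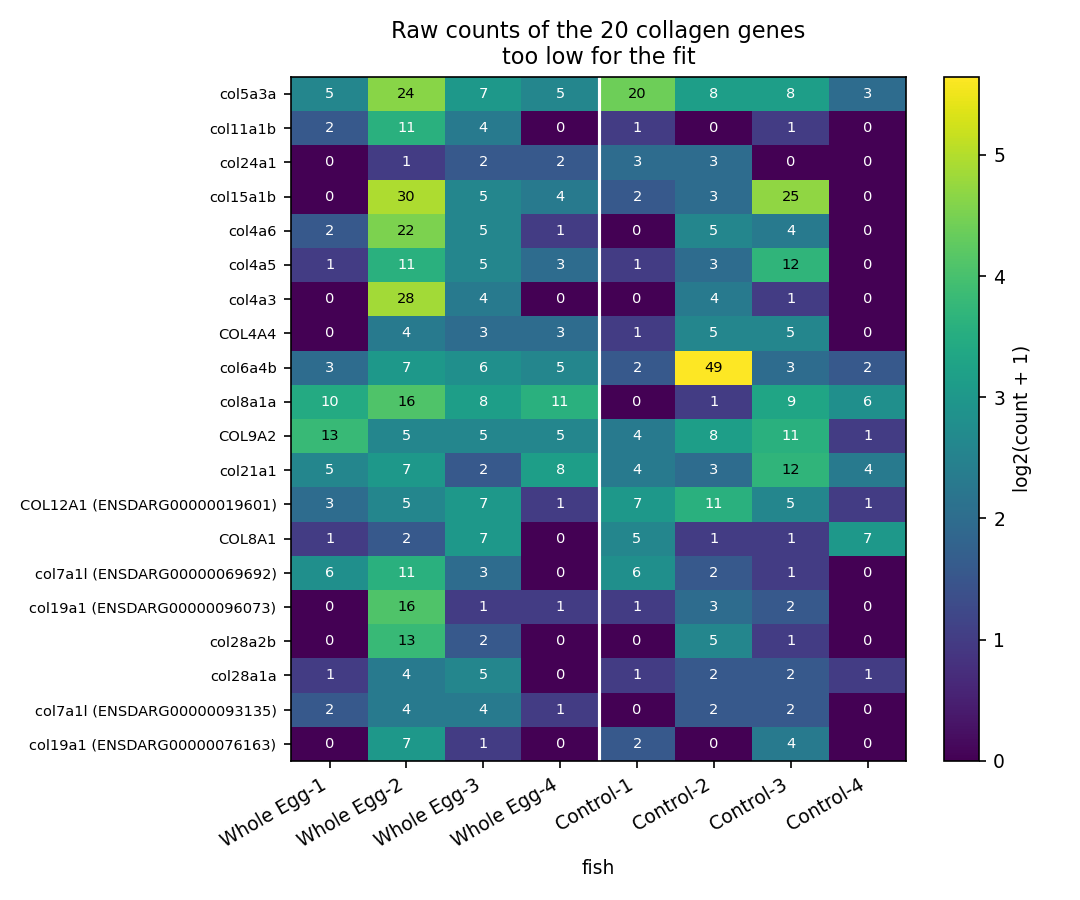
Raw reads of the 20 collagen genes too low for the main fit, with 1 row per gene and 1 column per fish (Whole Egg left, Control right), colored by log2(count + 1). The largest single values are 49 reads of col6a4b in Control-2 and 30 reads of col15a1b in Whole Egg-2.

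Genes that act on collagens were described with the same fit. They formed 6 lists of 136 genes in all, of which 83 were tested. At an adjusted p under 0.1, edgeR called 0 of the 83, and at an unadjusted p under 0.05 there were 0 higher in Whole Egg (2.54% of all genes) and 2 lower in Whole Egg (1.36% of all genes). Of the 83, 59 had a log2 fold change below 0, or 71.1%, against 45.8% of all genes. The median over the 83 was −0.12, against 0.04 over all genes, and the median was below 0 in all 6 lists. It was also below 0 for the hepatocyte (−0.24), endothelial (−0.18), exocrine pancreas (−0.62), bile duct (−0.24) and macrophage (−0.34) markers. The same held for stellate and mesenchymal (−0.12), smooth muscle (−0.11), bone, scale and skin (−0.42) and intestine (−1.79) markers. For the ovary (2.82) and red blood cell (0.21) markers it was above 0. The ovary sum was far highest in Whole Egg-2 (584 CPM) and the intestine sum in Control-2 (206 CPM). The 2 genes of low p belong to the modification of collagen chains in the endoplasmic reticulum. CRTAP, a subunit without enzyme activity of the prolyl 3-hydroxylase complex, had 0.639, 0.410, 0.530 and 0.603 CPM on Whole Egg, against 1.21, 0.725, 0.855 and 1.24 CPM on Control. All Whole Egg fish lay below all Control fish. This held for 1 of the 83 genes in either direction, where 2.14% of all genes had no overlap between the diets. The log2 fold change of CRTAP was −0.88 (SE 0.32) at an edgeR adjusted p of 0.810. P3H3, a protein of the same family, had 0.787, 0.703, 0.856 and 1.08 CPM on Whole Egg, against 1.37, 1.04, 1.30 and 2.1999 CPM on Control (log2 fold change −0.78, SE 0.33, edgeR adjusted p = 0.810).

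The abundant members of these lists showed no difference that passed the test. For chain assembly, P4HB, the disulfide isomerase that is also the beta subunit of prolyl 4-hydroxylase, had 252 to 503 CPM on Whole Egg and 330 to 576 CPM on Control, and the propeptide protease gene BMP1 (ENSDARG00000028071) had 99.1 to 255 CPM on Whole Egg and 177 to 309 CPM on Control. For turnover, the gelatinase gene MMP2 had 1.26 to 2.59 CPM on Whole Egg and 1.98 to 3.23 CPM on Control (log2 fold change −0.40, SE 0.31). The membrane proteases MMP14 (ENSDARG00000008388) and MMP15 (ENSDARG00000013072) had log2 fold changes of 0.07 and 0.00. Of the basement membrane partners, the linker NID1 (ENSDARG00000068710) had 61.8 to 156 CPM on Whole Egg and 140 to 181 CPM on Control, and the proteoglycan AGRN had 36.3 to 105 CPM on Whole Egg and 70.5 to 123 CPM on Control. In each of P4HB, BMP1, NID1 and AGRN the lowest fish was Whole Egg-2, which also had the lowest hepatocyte marker sum (11146 CPM). Whole Egg-2 had the largest TMM factor too, 1.72, which lowers its CPM. These genes were not compared without TMM, and the part of either in these values was not tested.

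Among other matrix genes, fibronectin FN1 (ENSDARG00000006526), which hepatocytes secrete into plasma, had 898 to 2785 CPM on Whole Egg and 2117 to 3268 CPM on Control. Matrix gene ecm1b had 8.66 to 20.01 CPM on Whole Egg and 11.6 to 21.2 CPM on Control. Of the 10 genes of this list tested, 3 had a log2 fold change above 0 and 7 below. A gene of POSTN, which binds collagen in tissue under remodeling, had a log2 fold change of 0.47 (SE 0.36). Another POSTN gene had as many reads, 181 over all fish, and is not described. Of the collagen receptors, ITGB1 (ENSDARG00000071863) had 21.0 to 43.9 CPM on Whole Egg and 38.4 to 55.4 CPM on Control. Of the further ITGB1 genes, that with the most reads (ENSDARG00000022689) had 7.90 to 15.6 CPM on Whole Egg and 8.13 to 19.6 CPM on Control. The kinase DDR2 had a log2 fold change of 0.68 (SE 0.43), while the other 7 of the 8 receptor genes tested were below 0. Of the TGF-beta pathway, a known inducer of collagen transcription in stellate cells, TGFBI had 78.9 to 174 CPM on Whole Egg and 102 to 215 CPM on Control. SMAD2 had the smallest p of that list, with 9.78 to 22.7 CPM on Whole Egg and 8.84 to 11.4 CPM on Control (log2 fold change 0.45, SE 0.29, edgeR adjusted p = 0.810), and Whole Egg-2 was its highest fish.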

How the data were processed

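RNAseq was made from whole livers of 4 Whole Egg and 4 Control females, and groups were taken from the sample labels. The authors depleted ribosomal RNA, made strand-specific libraries, used Trimmomatic 0.36 on the reads and STAR 2.5.2b for alignment (GRCz11), and deposited raw, not normalized counts per Ensembl gene of reads that mapped to 1 place. Of the deposited columns, that of the strand with 97.9% of the stranded counts was taken. A gene name table held a symbol for 29201 of 32520 genes and wrote 22 of the 57 collagen symbols in capitals. No sequence and no coordinates are given, because the reference tables used describe another assembly.

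Counts were analyzed in R 4.3.3 with edgeR 4.0.16 (TMM factors from 0.682 to 1.72, filterByExpr with a minimum count of 10, quasi-likelihood test, Benjamini-Hochberg adjustment over 13379 genes, adjusted p under 0.1) and DESeq2 1.42.0. Intervals and p-values are across fish, and counts allow for counting error only in the limit of 3 reads. Genes named were the 5 of the highest level in each class, the 5 of the smallest p, the alpha 1 and alpha 2 chains of types I, IV and V and alpha 1 to alpha 3 of type VI, and in each other list the gene of the smallest p and the 2 of the highest level; COL14A1, col16a1, col8a1a, col6a4b, col4a3, col11a1b, col28a2b, col19a1 and P3H3 were added after their values were seen. The members and lists were chosen with earlier results of these data known. Alternatives were RLE and upper quartile scaling, DESeq2, other filters, unstranded counts, an adjusted p under 0.05, the fish number as a block, leaving out each fish, and leaving out Control-2 with Whole Egg-2 or Control-4 with Whole Egg-1. On simulated data, edgeR found 54.5% of 200 genes set to a log2 fold change of 2, beside 13 unchanged genes of 13379.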

Additional observations from a re-analysis of the deposited data

Results flagged for a closer look

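The levels of the genes named, the summed levels and the ratios of chains were examined in 112 groups of 4 fish for a fish far from the others of its diet, and 8 were found. Chance alone marks about 1 in 20 such groups where values follow a normal distribution and are chosen unseen. Some groups here, col6a4b among them, were added after their values were seen, so the 8 cannot be set against that rate. Of the collagens, 2 of the 8 concern COL6A2 in Whole Egg-1. The reads of col6a1 over those of COL6A2 were 65.0 in Whole Egg-1, and 8.93 was the nearest value among the other Whole Egg fish. The reads of COL6A3 over those of COL6A2 were 9.73 in Whole Egg-1, and 2.36 was the nearest value. On the Control diet, Control-4 had a like pair of ratios (70.8 and 10.9). COL6A2 had only 15 reads in Whole Egg-1 and 10 in Control-4, and counting error was not allowed for. The gene col6a4b had 2.22 CPM in Control-2, and 0.137 CPM was the nearest value among Control fish. In the same library krt4 had 40.5 CPM, nearest 5.11 CPM, and the intestine markers summed to 206 CPM, nearest 18.1 CPM. Whole Egg-2 had an ovary marker sum of 584 CPM, nearest 69.0 CPM, and a SMAD2 level of 22.7 CPM, nearest 11.2 CPM. The intestine markers also set Whole Egg-4 apart from the other Whole Egg fish, at 18.4 CPM and nearest 10.7 CPM, a level close to that of Control-3.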

How the results depend on the processing

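No collagen gene and no gene of the other lists was called by edgeR under any alternative run, at an adjusted p under 0.1 or 0.05. DESeq2 was run on all fish together only, and it called 0 of these genes at an adjusted p under 0.1. Genes at an unadjusted p under 0.05 appeared in single fits, given here with the share of all genes at that p: col18a1a (upper quartile, 3.52%, without Whole Egg-2, 2.67%, and without Control-2 and Whole Egg-2, 2.12%), col27a1b (without Control-2, 2.46%, and without Control-2 and Whole Egg-2), col6a1 (without Whole Egg-1, 9.95%) and COL2A1 (without Whole Egg-4, 9.67%). The count of collagen genes without overlap between the diets was 1 under upper quartile scaling (2.36% of all genes), 2 without Control-2 and Whole Egg-2 (6.92%) and 1 without Control-4 and Whole Egg-1 (11.1%), and 0 to 2 when each fish was left out (3.43% to 7.41% of all genes, with 7.41% in the fit that gave 2). Settings that leave out fish hold fewer fish, and the cause of these counts was not tested. The paper removed Control-4 and Whole Egg-1 because the samples overlapped although their diets differed, so that pair was not picked without regard to diet. In the remaining fish, and with genes of low read count dropped, the paper's DESeq2 fit found differentially expressed genes. DESeq2 was not run on those fish here. With all fish, and without Control-2 and Whole Egg-2, the paper found no differentially expressed genes. By RT-PCR, the paper saw similar trends for some of the genes found in the sequenced fish. With more females, and in males, those genes did not differ between these diets. The log2 difference of the summed collagen level was −0.29 under RLE and −0.38 under upper quartile scaling. Scaled by reads on genes alone, that sum was higher in all Whole Egg fish than in all Control fish but Control-2. Fits of single genes were not run with that scaling. Small fold changes turned in sign. Under upper quartile scaling the log2 fold change was −0.064 for COL4A2 and −0.033 for COL6A3, and with unstranded counts −0.029 for COL4A2. Without Control-2 and Whole Egg-2 it was 0.0051 for COL5A1, 0.093 for COL1A2, 0.092 for COL5A2 and 0.12 for COL4A1, and without Control-4 and Whole Egg-1 it was 0.061 for COL5A1 and 0.46 for COL12A1 (ENSDARG00000078322). With each fish left out in turn, the ranges were −0.55 to 0.24 for COL12A1, −0.019 to 0.25 for col1a1a, −0.18 to 0.13 for COL1A2, −0.17 to 0.088 for COL4A1, −0.042 to 0.12 for COL4A2, −0.26 to 0.063 for COL5A1, −0.34 to 0.051 for COL5A2 and −0.077 to 0.12 for COL6A3. Without a filter on low counts, the class median was 0.14 for basement membrane genes and 0.066 for other types. The number of collagen genes below 0 was 16 of 17 without Whole Egg-4 and 10 of 17 without Control-2.

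With the fish number as a replicate block, 0 collagen genes were called, the smallest adjusted p was 0.740 and the median log2 fold change was −0.16. Same-numbered fish are different fish, and across genes the correlation of how they deviated ran from r = 0.0787 to 0.451, so the numbers were not taken as pairs. The mean was 0.270 for the same number and −0.0942 for other numbers. The second value largely follows from the first, because deviations were taken from the mean of each diet. The fish numbered 1, 2 and 4 correlated best with their own number, and Whole Egg-3 and Control-3 with another, a hint from the data and not from the design.

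The depth limits the 20 collagen genes of 11 to 80 reads most, for which a fold change rests on a few reads per fish.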

Other observations

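Reads on the strand opposite to a collagen gene outnumbered its own reads in some genes below the minimum of 10. COL10A1 (ENSDARG00000101535) had 1 read on its own strand and 158 on the other. COL9A1 had 2 and 90 reads, col28a2a had 1 and 58, and col17a1a had 0 and 58. Opposite reads of COL10A1 numbered 37, 12, 24 and 6 in Whole Egg fish, against 33, 23, 14 and 9 in Control fish. With unstranded counts these genes would pass the minimum of 10. Among the 37 genes described, COL4A4 had 21 reads on its own strand and 32 on the other.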
